A study of Rattus norvegicus with 12 samples.

Results

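Glutathione and antioxidant enzymes were followed in rats of a low Fe group and a high Fe group, in mucosa scraped from the jejunum, a segment of the small intestine. The 10 genes chosen by name were Gclc, Gclm, Gsr, Gpx1, Gpx2, Cat, Prdx1, Sod1, Txnrd1 and Nqo1, and their members were the probe sets whose only gene symbol in the platform annotation is 1 of these. Such probe sets numbered 11, for 9 of the genes, out of 31142 probe sets and 13810 named genes on 2 Affymetrix array types for rat, 230A and 230B. All 11 were on 230A and none on 230B, and all 11 passed the filter on dim probe sets. For Prdx1 the annotation gives a probe set shared with Prdx1l1, which is described but not counted.

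The low Fe and high Fe groups had 3 samples each, all labelled as week 12, with iron deficiency and anemia as keywords. The labels do not say whether the week is an age or a time on a diet, and the strain, sex and iron content of the diets are not given in the sources used here. Whether each sample is a different animal is not stated either, so a p-value here covers the spread of the samples alone, and that spread may be technical. A scraping mixes cell types, so fewer cells of a type and less RNA per cell cannot be told apart. Values are array signals on a linear scale, differences are of log2(signal + 16), low Fe minus high Fe, and p-values come from limma, adjusted by Benjamini-Hochberg over the 9519 tested 230A probe sets.

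Cybrd1, Slc11a2 and Tfrc, genes of iron uptake known to respond to low iron, were all higher in low Fe than in high Fe (limma adjusted p from 0.000892 to 0.00216). The enterocyte markers Vil1 and Fabp2 were among the bright probe sets in both groups, Fabp2 with a mean signal of 13962 in low Fe and 14157 in high Fe, while 4 of 13 liver and pancreas markers passed the filter on dim probe sets (Ttr, Serpina1, Cela1 and Cpb1), and Alb and Cpa1 were among those that did not (means of 76.4 and 9.7 in low Fe, and 119 and 17.1 in high Fe). Low Fe replicate 3 stood apart in its beta-actin ratio, a measure of RNA quality, and not in its GAPDH ratio. Its ratio of 5' to 3' signal for the beta-actin control probe sets was 0.054, against 0.591 to 0.836 on the other 5 arrays. For the GAPDH control probe sets it was 0.794, close to 0.807 in low Fe replicate 2 and 0.811 in high Fe replicate 1.

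Glutathione, a tripeptide thiol, is made in the cytosol by glutamate-cysteine ligase, a heterodimer of a catalytic subunit (Gclc) and a modifier subunit (Gclm), followed by glutathione synthetase. Glutathione peroxidases spend it to reduce peroxides, and glutathione reductase (Gsr) restores it with NADPH. Catalase, superoxide dismutase, peroxiredoxins and thioredoxin reductase act beside this cycle, and several of the genes are known targets of the transcription factor NRF2, which binds the antioxidant response element. In the gut epithelium these enzymes meet peroxides from food, bile and the cells' own metabolism, and iron is known to turn hydrogen peroxide into more reactive radicals.

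The promoters of the 3 genes whose groups did not overlap (below) are shown, as the 250 bases before the RefSeq gene start in build GRCr8, 5' to 3' on the gene's strand. Capitals mark exact matches to the core of the antioxidant response element, TGACNNNGC, searched on both strands.
Gpx2, chr6:101230034-101230283, strand -: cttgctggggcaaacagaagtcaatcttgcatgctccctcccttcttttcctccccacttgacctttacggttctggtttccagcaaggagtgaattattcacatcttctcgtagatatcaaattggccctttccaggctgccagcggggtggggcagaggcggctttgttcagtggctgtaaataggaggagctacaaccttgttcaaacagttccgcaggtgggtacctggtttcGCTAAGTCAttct
Gclm, chr2:213031885-213032134, strand +: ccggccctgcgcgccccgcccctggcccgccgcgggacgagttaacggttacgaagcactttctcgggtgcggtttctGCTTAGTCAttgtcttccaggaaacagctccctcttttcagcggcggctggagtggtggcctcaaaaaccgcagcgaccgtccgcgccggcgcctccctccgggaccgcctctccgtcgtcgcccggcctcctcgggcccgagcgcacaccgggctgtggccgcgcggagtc
Gclc, chr8:87510226-87510475, strand +: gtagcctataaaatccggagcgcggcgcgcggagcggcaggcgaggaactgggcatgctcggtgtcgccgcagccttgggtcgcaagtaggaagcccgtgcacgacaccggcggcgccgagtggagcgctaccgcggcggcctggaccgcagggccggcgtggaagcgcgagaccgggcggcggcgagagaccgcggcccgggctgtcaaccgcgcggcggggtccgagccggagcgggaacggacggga
The matches in Gpx2 and Gclm lie on the opposite strand, as GCTAAGTCA and GCTTAGTCA, and begin 13 and 172 bases before the start. The Gclc window holds no match, and bases further upstream were not searched for any gene. Of the 9 genes of the list with a promoter in the RefSeq table, 4 had a match, the others being Prdx1 and 1 of 2 starts of Txnrd1. The Prdx1 match, GCTGAGTCA, also holds the letters TGAGTCA of the AP-1 motif. Among all 33469 promoters of the table, 10.1% had a match in such a window. A match describes letters and does not show binding.

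None of the 11 probe sets passed adjusted p 0.05 in limma, higher or lower, where 0.0945% of the tested 230A probe sets did (0.084% as higher and 0.0105% as lower). The smallest adjusted p was 0.209, for Gpx2. At an unadjusted p under 0.05 there were 3 of 11, Gpx2, Gclm and the brighter probe set of Gclc, against a background of 6.68%. The same 3 were those without overlap between the groups, against a background of 11.8%, and they did not go one way: Gpx2 and Gclc lay above high Fe in every low Fe sample (background 5.61%), and Gclm lay below it (background 6.18%). Over the 11 probe sets the median log2 difference was 0.03, with 7 above 0 and 4 below, and over all tested 230A probe sets it was -0.01.

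**Figure D1:**
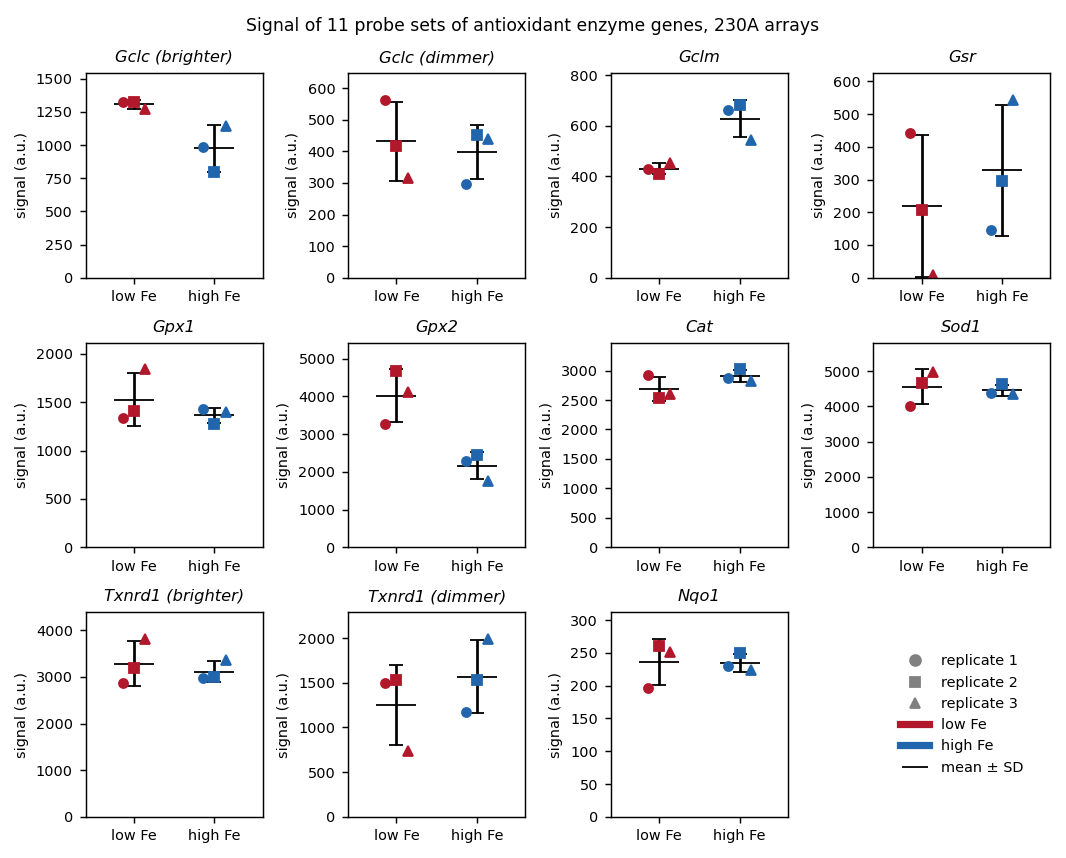
Array signal (linear scale, arbitrary units) of the 11 probe sets on the 230A arrays, with low Fe left of high Fe in each panel; symbols are replicates, and bars show the mean ± SD of 3 samples. Gpx2 and the brighter Gclc probe set are higher in all low Fe samples, Gclm is lower in all of them, and the remaining panels overlap.

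Glutathione synthesis was represented by both subunits of its first enzyme, and they differed in opposite directions. Gclm, the modifier subunit, had signals of 429.7, 410.1 and 452.6 in low Fe replicates 1 to 3, against 661.1, 680.7 and 544.5 in high Fe. The highest low Fe value was below the lowest high Fe value. Means were 430.8 ± 21.3 in low Fe and 628.8 ± 73.6 in high Fe (SD, n = 3 each), and the log2 difference was -0.52 ± 0.14 (SE), or 1.44-fold lower in low Fe, which did not pass (limma adjusted p = 0.523). Of the tested 230A probe sets, 3.39% had a lower difference.

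For Gclc, the catalytic subunit, 2 probe sets were present. The brighter had signals of 1327.5, 1326.9 and 1270.1 in low Fe, against 985.6, 796.6 and 1147 in high Fe. All low Fe samples were above all high Fe samples, with means of 1308 ± 33.0 in low Fe and 976.4 ± 175 in high Fe (SD, n = 3 each). Its log2 difference was 0.43 ± 0.15 (SE), 1.35-fold higher in low Fe, and did not pass (limma adjusted p = 0.681). Here the low Fe samples lay close together and the high Fe samples set the spread: the difference was 0.29 without high Fe replicate 2 and 0.55 without high Fe replicate 3.

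The dimmer Gclc probe set did not separate the groups. It had 562.9, 417.7 and 314.8 in low Fe, and 297.9, 452.3 and 440.5 in high Fe. Low Fe held both the highest value and the second lowest, so the groups overlapped. The log2 difference was 0.10 ± 0.24 (SE, limma adjusted p = 0.941), with a sign that turned without low Fe replicate 1 (-0.10) or high Fe replicate 1 (-0.08). The separation of the groups by Gclc therefore rests on 1 of its 2 probe sets. With the arrays blocked by their GAPDH ratio, a block chosen after the data were seen, the dimmer probe set gave 0.30. The mean of both probe sets gave 0.27.

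Taken within each array, the log2 signal of the brighter Gclc probe set minus that of Gclm was 0.95 higher in low Fe than in high Fe, with an SD of 0.10 in low Fe and 0.42 in high Fe (n = 3 each). This pair was formed after its values were seen, and the separation of both signals fixes that it separates the groups, so no p is given. Over the 6 arrays the 2 signals had a Pearson r of -0.94, a description only, since the arrays of a group share their treatment.

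Several glutathione peroxidases reduce hydrogen peroxide and lipid hydroperoxides with a selenocysteine in the active site, and Gpx2 is the form of the gastrointestinal epithelium. Gpx2 had signals of 3275.8, 4662.9 and 4107.5 in low Fe, against 2277.4, 2456 and 1766.5 in high Fe. The groups were apart, with the lowest low Fe sample well above the highest high Fe sample. Means were 4015 ± 698 in low Fe and 2167 ± 358 in high Fe (SD, n = 3 each).

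The log2 difference of Gpx2 was 0.88 ± 0.17 (SE), 1.85-fold higher in low Fe, with a 95% interval of 0.49 to 1.28. It did not pass (unadjusted p = 0.000679, limma adjusted p = 0.209), though only 0.42% of tested 230A probe sets had a higher difference and it ranked 31 by p. Without 1 array the difference ran from 0.74 to 1.02, and the adjusted p from 0.0794, without low Fe replicate 1, to 0.874, without low Fe replicate 2.

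Gpx1, the peroxidase found in the cytosol of most cells, had 1334.7, 1408.9 and 1838.1 in low Fe, against 1424.9, 1271.2 and 1393 in high Fe. Only low Fe replicate 3 was clearly above the high Fe samples, and the other 2 low Fe samples were within their range. The log2 difference was 0.15 ± 0.15 (SE, 95% interval -0.19 to 0.49, limma adjusted p = 0.860), and 0.01 without low Fe replicate 3. The difference between the Gpx2 and Gpx1 differences was 0.73 on the log2 scale, formed after the values were seen and not tested.

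Gsr, glutathione reductase, was measured by a dim and variable probe set, with 441.3, 207.7 and 8.3 in low Fe, against 146.1, 295 and 543.4 in high Fe. Its lowest value, in low Fe replicate 3, was the only 1 of the 66 member values under 106, the signal at the boundary of the filter on dim probe sets. The other 2 low Fe samples lay within the range of the high Fe samples. Gsr gave a log2 difference of -1.17 ± 0.94 (SE, 95% interval -3.29 to 0.96, limma adjusted p = 0.835), and it was 0.07 without low Fe replicate 3. Its size moved with the pseudocount, to -1.60 with 1 and -0.74 with 64, and was -0.50 with the arrays blocked by their GAPDH ratio of 5' to 3' signal.

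In low Fe replicate 3, the array with the low beta-actin ratio, Gsr was at 8.3, the lowest of the 6 arrays and too dim for a sized gap. The dimmer Txnrd1 probe set was 0.66 below the lowest of the other 5 arrays on the log2 scale, a gap that 0.956% of tested probe sets reached. Probe sets at least 1 below all other arrays numbered 47 for this array and 5 to 17 for each of the others. The part of RNA quality in the Gsr and Txnrd1 values was not tested.

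**Figure D2:**
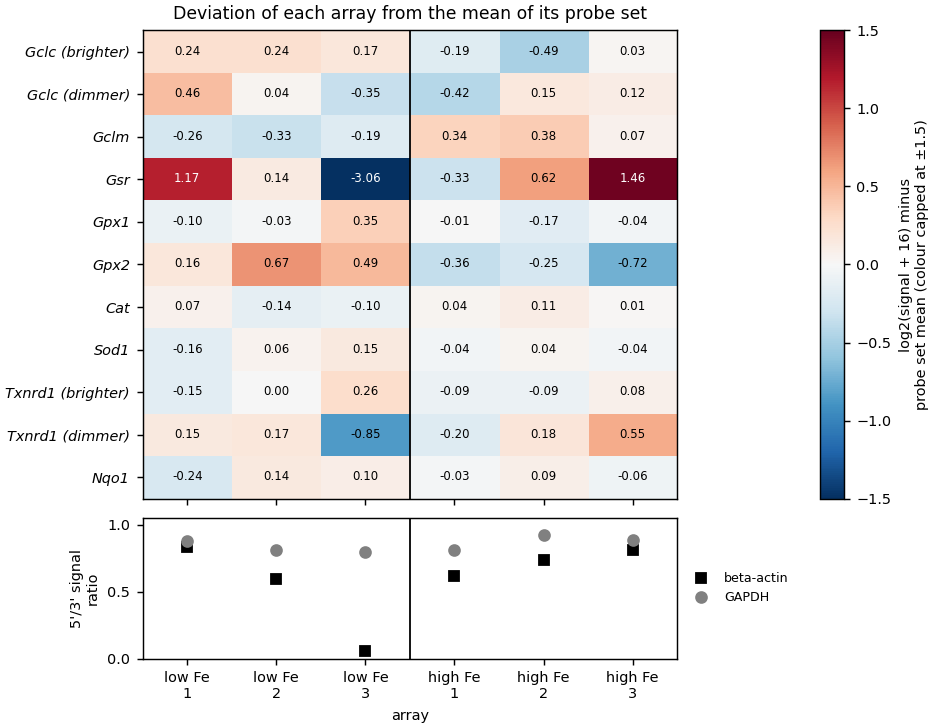
Upper panel: log2(signal + 16) of each of the 11 probe sets on each 230A array minus the mean of that probe set over the 6 arrays, low Fe left of the line and high Fe right of it. Lower panel: the ratio of 5' to 3' signal of the beta-actin and GAPDH control probe sets on the same arrays. Gsr and the dimmer Txnrd1 probe set are lowest on low Fe replicate 3, where the beta-actin ratio is 0.054, and Gpx2 is above its mean on all low Fe arrays.

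Catalase, superoxide dismutase and peroxiredoxin remove peroxide and superoxide without glutathione. Cat, the heme enzyme of peroxisomes that splits hydrogen peroxide, had 2923.5, 2535.4 and 2606.9 in low Fe, against 2872.9, 3019.4 and 2818.4 in high Fe. Low Fe replicates 2 and 3 were below all high Fe samples, and low Fe replicate 1 was among them. Cat gave a log2 difference of -0.11 ± 0.11 (SE, 95% interval -0.37 to 0.15, limma adjusted p = 0.860).

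Sod1, the copper and zinc superoxide dismutase of the cytosol, had 4009.9, 4671.5 and 4978.5 in low Fe, against 4383, 4622.3 and 4356.9 in high Fe. The low Fe samples spanned the high Fe samples on both sides. Sod1 gave a log2 difference of 0.03 ± 0.12 (SE, limma adjusted p = 0.978), with a 95% interval of -0.25 to 0.30. That interval was narrower than those of the other members but Cat, and does not show that the groups were alike.

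The probe set shared by Prdx1, a cytosolic peroxiredoxin, and Prdx1l1 had 5832.7, 7306.6 and 6493.5 in low Fe, against 5390.7, 6126.4 and 6707.7 in high Fe. The groups overlapped, and the log2 difference was 0.11 ± 0.13 (SE, limma adjusted p = 0.885). Signal from the 2 genes cannot be told apart there.

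Txnrd1, the cytosolic thioredoxin reductase, a selenoprotein that keeps thioredoxin reduced, had 2 probe sets. The brighter had 2858.9, 3179.9 and 3813.1 in low Fe, against 2986.7, 2990.8 and 3366.9 in high Fe, with low Fe samples on both sides of the high Fe samples. Its log2 difference was 0.07 ± 0.14 (SE, 95% interval -0.24 to 0.38, limma adjusted p = 0.930), and -0.04 without low Fe replicate 3.

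The dimmer Txnrd1 probe set had 1495.6, 1525.7 and 740 in low Fe, against 1176.8, 1529.4 and 1990.4 in high Fe. Low Fe replicate 3, the highest sample on the brighter probe set, was the lowest on this one. The log2 difference was -0.36 ± 0.29 (SE, limma adjusted p = 0.838), -0.02 without low Fe replicate 3 and -0.18 with the arrays blocked by their GAPDH ratio.

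Nqo1, the quinone reductase often used as a marker of NRF2 activity, had 196.2, 260.9 and 251.9 in low Fe, against 229.4, 250.5 and 224.3 in high Fe. The groups overlapped fully, with means of 236.3 ± 35.0 in low Fe and 234.7 ± 13.9 in high Fe (SD, n = 3 each). The log2 difference was 0.0008 ± 0.16 (SE, 95% interval -0.37 to 0.37, limma adjusted p = 0.999).

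**Figure D3:**
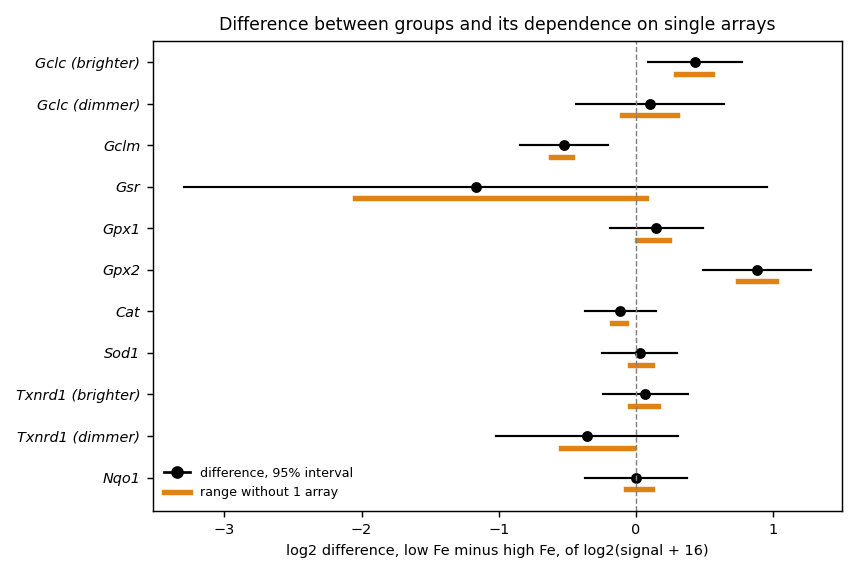
Log2 difference, low Fe minus high Fe, of each member probe set (points) with its 95% interval from limma (black lines) and the range of the difference when each array was left out in turn (orange lines). The orange ranges of Gpx2 (0.74 to 1.02), Gclm (-0.62 to -0.46) and the brighter Gclc probe set (0.29 to 0.55) cannot cross 0, since these groups do not overlap, and Gsr runs from -2.05 to 0.07.

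The 3 genes most like Gpx2 over the 6 arrays of 230A, among 8044 other named probe sets tested, were Acot13, an acyl-CoA thioesterase (Pearson r = 0.998), Cdk11b, a cyclin-dependent kinase (0.992), and Gmfg, a regulator of actin branching (0.990). Their own log2 differences were smaller, at 0.19, 0.32 and 0.19. They are the best of this many probe sets over 6 arrays, and are a description of these arrays.

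Across 6 further lists of related genes, 107 genes had a tested probe set, 95 of them taken from 230A and 12 from 230B. The groups did not overlap for 14 of the 107, against a background of 11.8% on 230A and 1596 of 9165 probe sets on 230B. Lack of overlap in a gene named below is therefore near the background share. A single gene passed, Hmox1, where 0.084% of tested 230A probe sets passed as higher and 0% of the 9165 tested on 230B passed (10.2% of these had an unadjusted p under 0.05 in limma). Hmox1, the heme oxygenase that frees iron from heme and a target of NRF2 among other factors, had 1411.7, 1407.6 and 1526.8 in low Fe, against 696.6, 466.5 and 582.4 in high Fe. It rose by 1.31 ± 0.16 on the log2 scale (limma adjusted p = 0.0251). The remaining 22 tested genes of NRF2 regulators and targets did not pass, and the median of that list was -0.005, with 10 above 0 and 13 below. Nfe2l2, which encodes NRF2, gave -0.004 ± 0.16 and Keap1, its inhibitor, 0.04 ± 0.14 (SE), both named for their role after their values were seen.

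Other genes of glutathione synthesis, salvage and recycling numbered 24 tested, with 0 past adjusted p 0.05 in limma (1 at an unadjusted p under 0.05), 9 above 0 and 15 below, and a median of -0.06. Gss, glutathione synthetase, the second step of the pathway, had 1260.7, 1375 and 1626.7 in low Fe and 1946.5, 1731.1 and 1607.3 in high Fe, a log2 difference of -0.31 ± 0.14 (SE, limma adjusted p = 0.747) with overlap of a single pair of samples. Ggct, which breaks down gamma-glutamyl peptides, gave 0.68 on 230B (-0.20 for a less bright probe set). Glrx, glutaredoxin, gave -0.29 (-0.38 for a less bright probe set).

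Other peroxidases, peroxiredoxins and superoxide dismutases numbered 16 tested, with 0 past in limma (1 at an unadjusted p under 0.05), 7 above 0, 9 below and a median of -0.03. Gpx3, the secreted plasma peroxidase, had 467.1, 522.8 and 552.7 in low Fe against 678.7, 807.8 and 599.9 in high Fe, without overlap, and a log2 difference of -0.42 ± 0.15 (SE, limma adjusted p = 0.693). Its difference from high Fe thus had the opposite sign to that of Gpx2. Prdx2, a peroxiredoxin, gave 0.30, and Msrb2, a mitochondrial methionine sulfoxide reductase, -0.31.

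The thioredoxin list had 13 tested genes, 0 past in limma (2 at an unadjusted p under 0.05), 5 above 0, 8 below and a median of -0.15. Srxn1, sulfiredoxin, which repairs overoxidised peroxiredoxins and is a target of NRF2, had 1039.9, 931.7 and 1086.6 in low Fe against 802.5, 821.6 and 800.8 in high Fe, without overlap, a log2 difference of 0.33 ± 0.12 (SE, limma adjusted p = 0.712), and -0.19 for a probe set on 230B. Txnrd3, a thioredoxin and glutathione reductase, gave -0.47, and Sesn3, a sestrin, 0.34 on 230B (0.02 for a less bright probe set).

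NADPH, which Gsr and Txnrd1 consume, is supplied by the enzymes of the fifth list. Of its 12 tested genes 0 passed in limma (1 at an unadjusted p under 0.05), with 8 above 0, 4 below and a median of 0.09. Nnt, the mitochondrial transhydrogenase, gave 0.39, and Nadk, the NAD kinase, -0.23 (-0.05 for a probe set on 230B). Me2, a mitochondrial malic enzyme, gave 0.32 on 230B (-0.24 for a less bright probe set). Selenium handling and other selenoproteins had 19 tested genes, 0 past in limma (0 at an unadjusted p under 0.05), 9 above 0, 10 below and a median of -0.02. Selenoi and Selenon gave 0.39 on 230B and 0.42, and Selenop, the selenium carrier, -0.32.

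**Figure D4:**
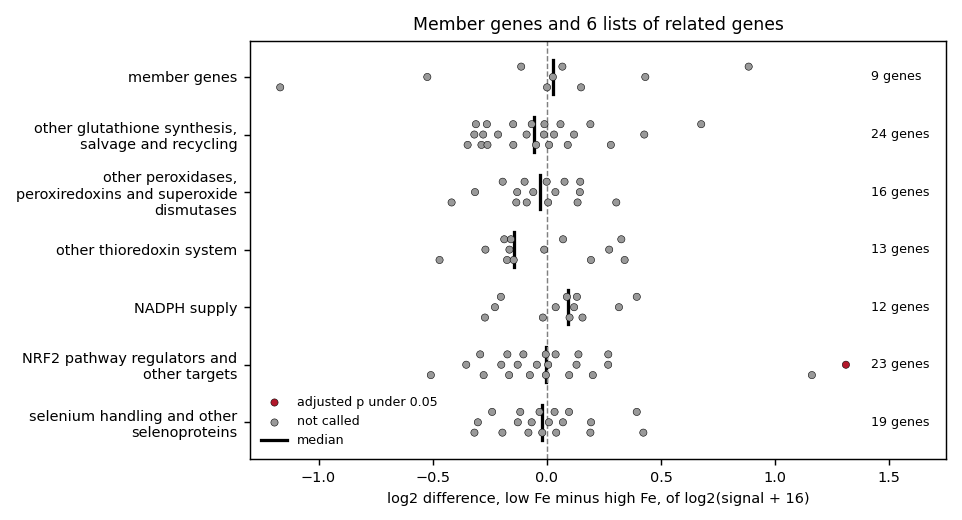
Log2 difference, low Fe minus high Fe, of the 9 member genes (brightest probe set) and of the tested genes of 6 related lists; black lines are medians, and the red point passed adjusted p 0.05. That point is Hmox1 at 1.31, and the medians of all 7 groups of genes lie between -0.15 and 0.09.

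Summed signals of some other cells' markers did not overlap between the groups. The sums include markers under the filter on dim probe sets, and no background share was computed for the sums. Smooth muscle markers had a summed 230A signal of 4523 to 5928 in low Fe and 3505 to 4211 in high Fe, with 5 of 5 tested genes above 0. Crypt and cell cycle markers summed to 3147 to 4860 in low Fe and 2169 to 2616 in high Fe, with 6 of 8 above 0. Mki67, a marker of dividing cells, had a log2 difference of 0.76 without overlap (limma adjusted p = 0.680). Of the tested 230A probe sets, 5.61% were higher in low Fe without overlap. Red cell markers, from cells rich in Cat and Prdx2, summed to 874 to 1078 in low Fe and 1155 to 1499 in high Fe, with 3 of 4 tested genes below 0. The sums of enterocyte, goblet and Paneth, leukocyte, liver and pancreas, and regional markers overlapped between the groups, and no defining marker was at 0. Tested enterocyte markers had 2 above 0 and 8 below, with a median log2 difference of -0.16. Goblet and Paneth markers had 3 above and 5 below, and leukocyte markers 5 above and 3 below. Liver and pancreas markers had 2 above and 2 below, and regional markers 1 above and 2 below. The part of these cells in the differences of Gpx2, Gclm and Gclc was not tested.

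By the GAPDH ratio of 5' to 3' signal, low Fe replicates 2 and 3 fell in a lower set together with high Fe replicate 1 (0.794 to 0.811), and the other arrays in a higher set (0.876 to 0.922). Within the lower and higher sets, with no test, the log2 differences were 0.94 and 0.65 for Gpx2, -0.60 and -0.49 for Gclm, and 0.39 and 0.47 for the brighter Gclc probe set. Each set holds a single sample of 1 group, and groups that do not overlap fix these signs, so only the sizes are informative. Among the members whose groups overlapped, Gpx1 and the dimmer probe sets of Gclc and Txnrd1 had the same sign in both sets, and Sod1, Nqo1, Gsr, Cat and the brighter Txnrd1 probe set had opposite signs.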

How the data were processed

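Samples were assigned to low Fe and high Fe from their titles, which number them 1 to 3 (called replicates here). What the authors deposited is a linear intensity for every probe set on each array, and the software behind it is not named in the labels or files. Array medians lay between 154.5 and 176.2 on 230A and between 259.5 and 302.8 on 230B, close enough that the arrays look scaled alike, and a shift common to most genes would then be hidden. The number of arrays limits the precision.

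Control probe sets (57 per type) were left out. So was the dimmest 40% of the rest, ranked by mean log2(signal + 16), which left 9519 probe sets on 230A and 9165 on 230B. Each type was fitted on its own with limma 3.58.1 under R 4.3.3 (lmFit, then eBayes with trend), and p-values were adjusted over the type, with a threshold of 0.05. SEs and 95% intervals are those of this fit. On simulated data the calls of the fit were checked, and not its SEs or intervals. Gene symbols come from the platform annotation, updated by Entrez identifier to RefSeq of GRCr8, and promoters from RefSeq. For a gene with several probe sets in a list, the brightest on 230A stands for it, or on 230B where 230A had none tested.

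Every member probe set is given. In each related list the genes that passed are named, or else the 3 with the smallest p. The members, lists and rules were chosen with earlier results of these data known. The alternatives were other pseudocounts, filters, scalings and eBayes settings, a replicate block, each array left out, the mean of a gene's probe sets and a threshold of 0.1. A block for the GAPDH ratio sets was added after the data were seen. Deviations of same-numbered low Fe and high Fe samples from their group means correlated below 0 on both types, so the numbers gave no sign of pairing.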

Additional observations from a re-analysis of the deposited data

How the results depend on the processing

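No member probe set passed adjusted p 0.05 under any alternative run in limma, and 0 passed on 230B. On 230A, 9 probe sets passed in the analysis as reported. That count was 15 at a threshold of 0.1, 28 after scaling to the hybridization controls, 4 with the replicate block and 14 with a block for the GAPDH ratio, an alternative chosen after seeing the data. Without 1 array it ran from 5 (without low Fe replicate 2) to 21 (without low Fe replicate 1). The causes were not tested. Scaling to the hybridization controls moved the median of all 230A probe sets to 0.29. Relative to that median, Gpx2 was at 0.91, Gclc at 0.46, Gclm at -0.50 and Cat at -0.08. The mean log2 signal of these controls was 9.92 on high Fe replicate 2 and 8.87 to 9.13 on the other 230A arrays.

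Gpx1 and the dimmer Txnrd1 probe set kept their direction under every alternative run, as did Gpx2, Gclm and the brighter Gclc probe set, for which groups that do not overlap fix the direction when an array is left out. Directions turned for Cat after hybridization scaling (0.21), for Txnrd1 as the mean of its probe sets (-0.14), and with the GAPDH block for Sod1 (-0.012) and Nqo1 (-0.052). With each array left out in turn, Gsr ran from -2.05 to 0.071 and the brighter Txnrd1 probe set from -0.044 to 0.16, both turning without low Fe replicate 3. Sod1 ran from -0.041 to 0.11 and also turned without that array. Nqo1 ran from -0.071 to 0.12, turning without low Fe replicate 2 or 3 or high Fe replicate 1 or 3, and the dimmer Gclc probe set ran from -0.10 to 0.30, turning without low Fe replicate 1 or high Fe replicate 1. Gsr and Nqo1 were not tested with the lowest 60% left out. Signal near the filter boundary limits Gsr.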
